A study of Mus musculus with 222 samples.

Results

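Some of the mice in this study carried several mammary tumors at necropsy. The questions addressed here for the F1BX mice are whether the tumor numbered 1 differed in gene expression from the tumors of the same mouse with higher numbers, and how much of the variation between tumors lay between mice rather than within them. F1BX mice are the backcross of F1 mice (C57BL/6 x FVB/N) to FVB/N. All carried the MMTV-ErbB2 transgene, in which the ErbB2 oncogene is driven by the mouse mammary tumor virus promoter, active in mammary epithelium, and tumors arose without further treatment. The transgene came from F1 males and the FVB mothers lacked it. The ages of the mice are not in the labels used here. The FVB and F1 mice used for comparison were of the genotype MMTV-ErbB2 as well, so no group was free of the transgene.

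Expression was measured on Affymetrix mouse gene arrays, 1 tumor on each array, as log2 values of 35556 probe sets. The tumors were chosen by measured values, the interquartile range of each array. An array entered with an interquartile range of at least 2.8 and a name not ending in R, taken here to mark a repeat, and its mouse with at least 2 such tumors. This gave 77 tumors of 30 mice, out of 222 arrays in the series and 160 of F1BX tumors. Of the mice, 15 gave 2 tumors, 13 gave 3 and 2 gave 4. The interquartile range of the 77 arrays ran from 3.091 (tumor 040T2) to 3.299 (292T1). Over all arrays, the nearest below the limit had 2.624 and the nearest above it 3.043. Another 63 F1BX tumors above the limit were single tumors of their mouse, and the 18 below it also came from mice with 1 array each. Mouse 117 had tumors numbered 2 to 5 and no tumor number 1. The comparison of first and later tumors therefore held 29 first tumors and 44 later ones, of 29 mice. The names run as the number of the mouse, then T and the number of the tumor, up to 6. "First" and "later" here mean the number 1 and a higher number in the name, since the sources used here do not say that the numbers follow the order in which tumors appeared.

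Tumors of 1 backcross mouse share the same inherited alleles but arise as separate lesions, with their own blood supply and their own mixture of tumor, stromal and immune cells. At each locus a backcross mouse is either homozygous for the FVB allele or heterozygous for FVB and C57BL/6, so inherited differences in expression divide such mice into groups. Hypoxia response genes follow local oxygen, through the HIF transcription factors, which bind short sites with the core ACGTG or GCGTG. Interferon response genes are switched on through STAT and IRF factors at interferon stimulated response elements.

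The 77 arrays held mammary epithelial tumors by their markers. Erbb2, the receptor encoded by the transgene, ran from 11.73 in 187T2 to 12.82 in 247T2. The probes follow the mouse sequence, and transgene and mouse gene were not separated. How far these probes take up RNA of the transgene was not tested. Krt8 and Krt18, keratins of luminal epithelium, ran from 11.92 to 13.39 and from 11.62 to 13.56. Several tumors also held other tissue. The mean of 10 skeletal muscle genes had a median of 6.56 and reached 12.09 in 292T3, 11.03 in 298T1 and 10.00 in 187T2. The mean of 11 adipocyte genes reached 10.91 in 292T3 against a median of 6.97. In bulk tissue, fewer cells of a type and less RNA per cell cannot be told apart.

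The tumor 145T5 stood apart from the other tumors of its mouse at several genes that differ between FVB and F1 tumors. D17H6S56E-5 was 12.50 in 145T5, 9.17 in 145T1 and 9.47 in 145T6. H2-Eb1, a chain of an MHC class II molecule, was 9.09 in 145T5, 7.43 in 145T1 and 6.88 in 145T6. Trim12a, of the tripartite motif family, was 7.29 in 145T5, 5.87 in 145T1 and 5.03 in 145T6. In no other mouse did the tumors lie on both sides of the midpoint of the FVB and F1 means for D17H6S56E-5. At the midpoint between the lowest F1 tumor (8.765) and the highest FVB tumor (9.918), 7 mice were mixed. The lowest F1 tumor lay below the highest FVB tumor, so this midpoint falls within the range of the FVB tumors (8.421 to 9.918). At the midpoint of the means, H2-Eb1 was also mixed in mice 142, 163 and 276, and Trim12a in mice 126 and 207. At C1qtnf1 and Tln2, which also differ between the backgrounds, the tumors of mouse 145 lay on the same side (9.67, 8.63 and 8.86, and 8.33, 8.96 and 8.60, in 145T1, 145T5 and 145T6). The array was kept under its label. The number of calls in both tests, the overlap with the FVB and F1 tumors and the list counts of the mouse effect are also given without it.

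Between later and first tumors of the same mouse, no single gene passed the test after adjustment. Of 35556 probe sets, 0 (0%) had an adjusted p under 0.05 in limma with the mouse as a block, and the lowest adjusted p was 0.796. At an unadjusted p under 0.05 there were 1961 (5.52%), 1080 higher and 881 lower in later tumors. Without 145T5 there were again 0 calls, with 1969 at an unadjusted p under 0.05. The differences were estimated closely for most probe sets. These include probe sets with low signal, since 26249 passed a filter on it (at least 6 in at least 25% of the tumors). Several of the variable genes named below had larger standard errors. The median absolute log2 difference was 0.0414, the median standard error 0.0544, and the 95% interval of 35458 probe sets (99.7%) lay within a 2-fold change in either direction. The only probe set with a log2 difference of 1 or more was that of Car3, a carbonic anhydrase of adipose tissue and muscle.

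For Erbb2 the interval of the difference between first and later tumors was narrow. Its median was 12.44 in first tumors (lowest 12.01, highest 12.68) and 12.44 in later tumors (11.73 to 12.82). The log2 difference, later minus first, was 0.04 with a 95% interval from -0.04 to 0.13, and later tumors were higher in 15 of 29 mice. Among the ERBB receptors and their ligands, Erbb2 included, 10 of 13 measured genes had a positive difference and 1 had an unadjusted p under 0.05. This was Egf, a ligand of the EGF receptor, with a median of 8.22 in first tumors (6.95 to 11.05) and 9.14 in later ones (7.4 to 10.82). The groups overlapped over most of this range. Its log2 difference was 0.57 (standard error 0.24, adjusted p = 0.879 in limma), higher in 23 of 29 mice. Of 13 genes that report ERK signaling, only Dusp6, an ERK phosphatase, had an unadjusted p under 0.05 (0.16, adjusted p = 0.879).

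The genes with the smallest p were higher in later tumors by 0.14 to 0.35 or lower by 0.12 to 0.21 on the log2 scale, and none passed (adjusted p 0.796 to 0.879 in limma). Tbcel, a relative of the tubulin folding cofactor E, had a median of 8.60 in first tumors (7.63 to 9.14) and 8.90 in later ones (7.95 to 9.28). The difference was 0.32 (standard error 0.07, adjusted p = 0.796), with later tumors higher in 23 of 29 mice. Il18bp, the secreted inhibitor of interleukin 18, had 8.90 (8.40 to 9.33) and 9.07 (8.47 to 9.74), a difference of 0.24 that was positive in 22 of 29 mice. Mkrn3, an imprinted gene of the makorin family, had 5.23 (4.73 to 6.56) and 5.61 (4.88 to 7.33), a difference of 0.35 that was positive in 24 mice. The groups overlapped for all 3 genes. Snora30, Tcl1b3, Mir680-2, Fan1, Tnrc6a, C2cd3 and Phxr4 were the next genes with positive differences, from 0.14 for Fan1 to 0.26 for Snora30. Of the genes with negative differences, Pnn, the splicing-associated protein pinin, had the smallest p, with 8.93 (8.40 to 9.35) in first and 8.76 (8.20 to 9.44) in later tumors. Its difference was -0.18 (standard error 0.04, adjusted p = 0.796), and later tumors were higher in only 4 of 29 mice. Gmcl1, Sh3gl1, Olfr895, Rhot1, Nmd3, Tut1, Ifngr2, Serpinb6c and H4c3 followed, from -0.12 for Tut1 to -0.21 for H4c3.

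In 7 of 29 gene lists every measured gene had a difference of the same sign, positive in 5 lists and negative in 2. These counts carry no test, because the genes of a list move together and the lists were chosen with results of these arrays known. Over the 29 lists, 332 different genes were measured, of which 12 had a positive and 14 a negative difference at an unadjusted p under 0.05. Of all 19938 genes with 1 symbol, 1089 had an unadjusted p under 0.05 in either direction. All 16 hypoxia and glycolysis genes had a negative difference, with a median of -0.21, against 0.00 over all 19938 genes with 1 symbol. In 5 of them the unadjusted p was under 0.05. Adm, the vasodilator peptide adrenomedullin, had a median of 10.10 in first tumors (7.60 to 11.57) and 9.41 in later ones (7.60 to 11.28), with a difference of -0.66 (standard error 0.25, adjusted p = 0.879) that was negative in 20 of 29 mice. Slc2a1, the glucose transporter GLUT1, had a difference of -0.22 and P4ha1, which hydroxylates collagen prolines, of -0.28. Hk2, the first enzyme of glycolysis, had -0.24 and Ankrd37 -0.26. The mean over the 16 genes was lower in later tumors in 18 of 29 mice, by 0.25 ± 0.56 (SD over mice), and so varied more between mice than it shifted. The interquartile range of the arrays was 3.214 ± 0.055 (SD) in first and 3.195 ± 0.051 in later tumors, and with it as a covariate the list median was -0.14.

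All 14 fibroblast and matrix genes also had negative differences (median -0.26). Postn, the matrix protein periostin, had -0.39, and the collagen genes Col1a1 and Col1a2 had -0.38 each. The list mean was lower in 16 of 29 mice, and in mouse 187 it went from 12 in 187T1 and 11.93 in 187T2 to 8.12 in 187T3. Macrophage genes moved with it there, with list means of 11.10, 11.11 and 8.67. All 15 interferon response genes had positive differences (median 0.24, 3 at an unadjusted p under 0.05, against 5.52% of all probe sets). Ifit3, an interferon-induced antiviral protein, had a median of 7.75 in first tumors (5.77 to 10.29) and 8.01 in later ones (6.27 to 10.65), with a difference of 0.43 (standard error 0.21, adjusted p = 0.879) and a positive sign in 19 of 29 mice. The largest rises of the list mean were in mouse 207, from 7.20 to 9.39, and in mouse 275, from 8.08 to 10.09. In mouse 178 it went the other way, from 9.43 to 7.65. MHC class I genes, which interferon induces, had 11 of 11 positive differences with a median of 0.15. Of the 18 genes of this list 11 were measured, and H2-K1 and H2-D1 were not among them.

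The 3 remaining lists with 1 sign were those of milk, fat and muscle. All 11 milk protein and secretion genes had positive differences (median 0.48, and 0.23 with the interquartile range of the arrays as a covariate). Csn1s1, a casein, had a median of 10.96 in first tumors (5.94 to 13.22) and 12.30 in later ones (6.62 to 13.18), a difference of 0.92 (standard error 0.44, adjusted p = 0.879). When the tumor number was fitted as a slope, the median of this list turned to -0.04 per tumor number. All 11 adipocyte genes had positive differences (median 0.26), and 10 of 10 skeletal muscle genes did (median 0.27). High muscle values were found in few tumors. The list mean rose from 6.53 in 292T1 to 9.61 and 12.09 in 292T2 and 292T3. It fell from 11.03 in 298T1 to 6.62 and 6.66 in the other tumors of mouse 298. Without mice 292, 298 and 139, which held the 2 tumors with the highest muscle mean and the 2 with the highest adipocyte mean, 0 probe sets were called and 1472 had an unadjusted p under 0.05. The hypoxia list then had a median of -0.20, the muscle list 0.359 and the adipocyte list 0.205. Of 23 proliferation genes, 20 had negative differences, but the median was only -0.07. MHC class II genes (median 0.01), T cell genes (0.01), B and plasma cell genes (0.01) and neutrophil genes (0.01) lay near 0.

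**Figure D1:**
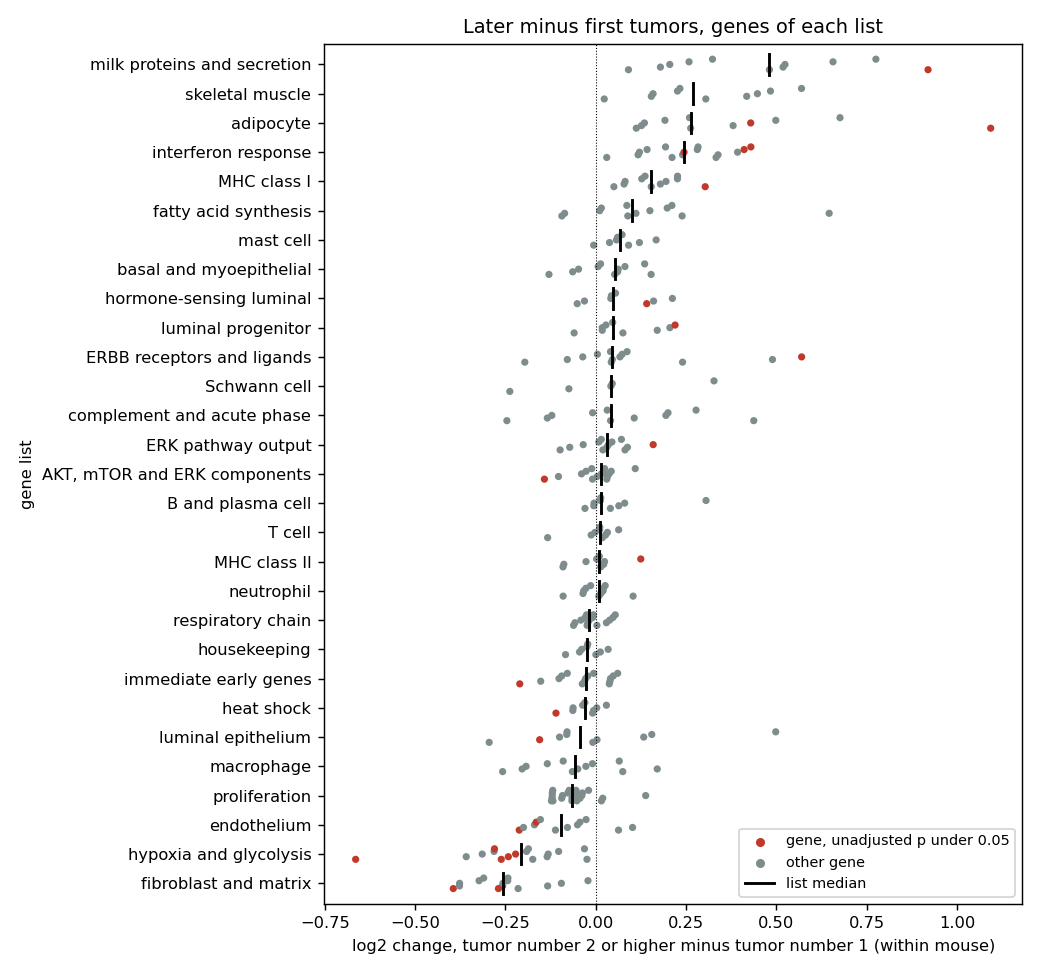
Log2 difference between later and first tumors within mice (x axis) for each measured gene of 29 lists (y axis, ordered by median), with genes at an unadjusted p under 0.05 in red and the list median as a bar. All 16 hypoxia and glycolysis genes lie below 0 and all 15 interferon response genes above it, and no gene passed adjustment.

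**Figure D2:**
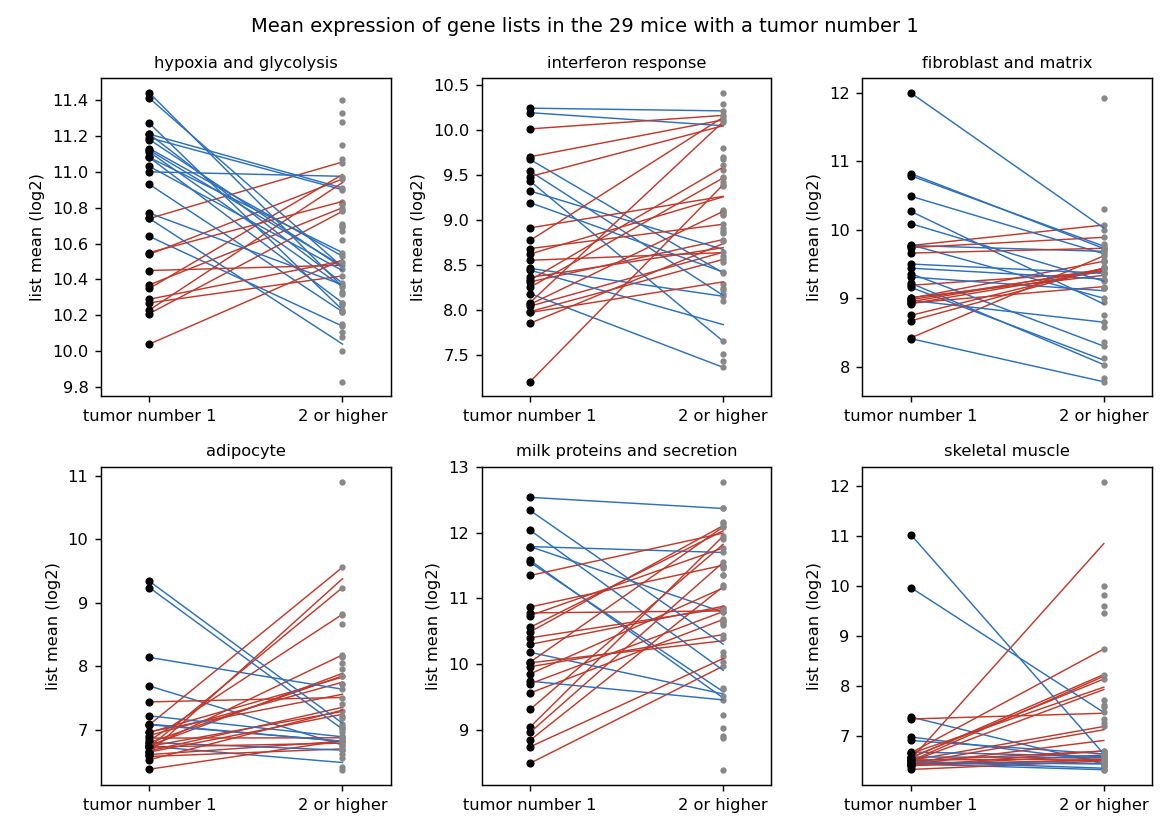
Mean log2 expression of 6 gene lists (y axis) in tumor number 1 (black points) and in tumors with higher numbers (grey points) of 29 mice, with a line from the first tumor to the mean of the later tumors of its mouse, red where it rises and blue where it falls. Lines run in both directions in every list, with 18 of 29 falling for hypoxia and glycolysis and 19 of 29 rising for interferon response.

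In the other backgrounds the comparison rested on fewer mice. Of the FVB mice 4 (8 tumors), and of the F1 mice 3 (7 tumors), had a first and a later tumor. Whether the difference between later and first tumors depended on the background was tested as an interaction, with 0 probe sets (0%) called, 1732 at an unadjusted p under 0.05 and a lowest adjusted p of 0.957 in limma. In the FVB and F1 mice alone 0 were called, with 3219 at an unadjusted p under 0.05 and a lowest adjusted p of 0.38.

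Mice differed from each other more than their tumors did within them, at a minority of genes. The mouse effect, an F test over the 30 mice, was called for 1678 probe sets (4.72%) in limma, and for 930 of 19938 genes with 1 symbol (4.66%). Without 145T5 it was called for 1515, of which 1457 were among the 1678, and for 835 genes with 1 symbol (4.19%). Over all probe sets together, 45.6% of the sum of squares lay between mice and 54.4% within them. With 30 mice and 77 tumors, the number of mice alone would place 38.2% between mice. The variance component between mice was thus 12.3% of the total (jackknife standard error 2.31 over mice). For single probe sets the share between mice ran from 12.1% to 94.6%, with quartiles of 37.7%, 43.9% and 50.4%, and 9416 probe sets (26.5%) lay below 38.2%. In the inbred FVB mice (4 mice, 8 tumors) the share was 37.7%, where the number of mice alone gives 42.9%, and in the F1 mice (4 mice, 10 tumors) it was 32.4% against 33.3%. No probe set was called in either (0 at an adjusted p under 0.05 in limma), and these few mice were not tested against the F1BX mice. The labels give no dates or runs, so that shared handling of the arrays of 1 mouse and the mouse itself cannot be told apart. The array median had 57.3% and the interquartile range 38.3% of its sum of squares between mice.

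**Figure D3:**
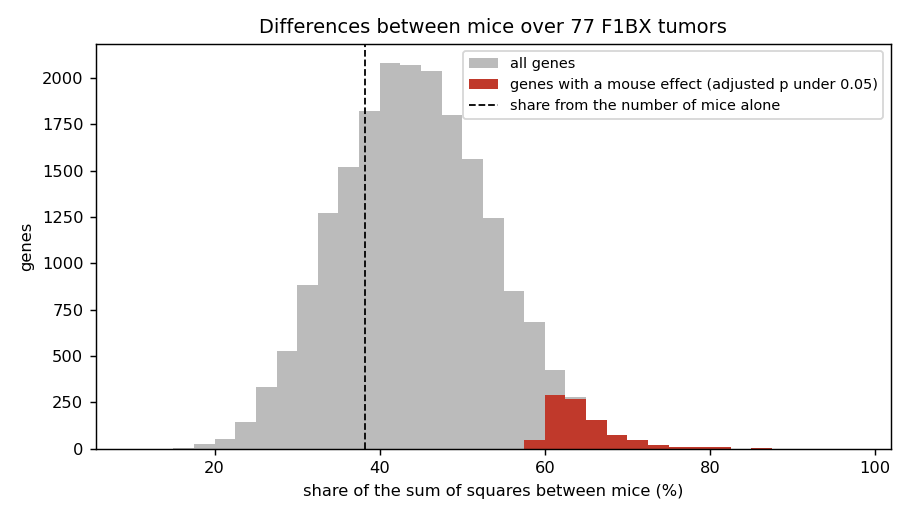
Number of genes (y axis) by the share of the sum of squares between mice (x axis, %), for 19938 genes with 1 symbol in grey and the 930 with a mouse effect in red. The dashed line marks 38.2%, the share that the number of mice alone gives.

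The genes with the highest shares had similar levels in the tumors of most mice and distinct levels between mice. D17H6S56E-5 (share 92.2%, adjusted p = 6.15e-15 in limma) ran from 8.11 to 13.25, with 9.08 and 8.11 in the tumors of mouse 139 and 12.81 and 13.25 in those of mouse 276. In 11 mice every tumor lay on the side of FVB tumors (mean 9.13), in 18 on the side of F1 tumors (mean 11.80), and only mouse 145 had both. Trim12a (88.5%, adjusted p = 1.65e-11) was 9.25 and 9.21 in mouse 078 and 4.77, 5.68 and 5.62 in mouse 251. H2-Eb1 (85.6%, adjusted p = 2.07e-09) was 6.99 and 6.94 in mouse 258 and 9.63 and 9.27 in mouse 266. Its highest values were those of 040T2 (10.47) and 187T1 (10.38), in mice whose other tumors had 8.45, and 9.80 and 8.33. Mtrr, methionine synthase reductase, came next by its share, before Tln2, the adhesion linker talin 2, with 86.8%, Vars, valyl-tRNA synthetase, with 86.6% and the zinc finger gene Zfp239 with 85.9%. AI506816, Capn11, Gcfc2, Pnp, Arntl2, Ifi209, Metap1d and Nlrp1c-ps followed, down to 80.6%. Capn11, a protease of the calpain family, was high in a single mouse, with 6.58 and 6.49 in mouse 106, and at most 5.93 in the others. Gcfc2 was highest in mouse 117, at 9.40, 10.57, 10.24 and 11.42, and Arntl2, a transcription factor of the circadian clock, in mouse 035 at 9.16 and 7.98. Trim12a, Pnp, Ifi209 and Nlrp1c-ps have near copies in the genome, so their probe sets may measure more than 1 gene. In the RefSeq gene order (GRCm38.p6), D17H6S56E-5 and Vars are next to each other and H2-Eb1 lies 34 genes away, so these 3 are not separate loci. Capn11 lies on the same chromosome, with 200 genes between it and Vars. Gcfc2, Zfp239 and Arntl2 share another chromosome, and AI506816 and Nlrp1c-ps share one as well. The 15 genes therefore need not be inherited independently. None of these 15 genes separated later from first tumors, with differences from -0.10 for Ifi209 to 0.22 for Trim12a.

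**Figure D4:**
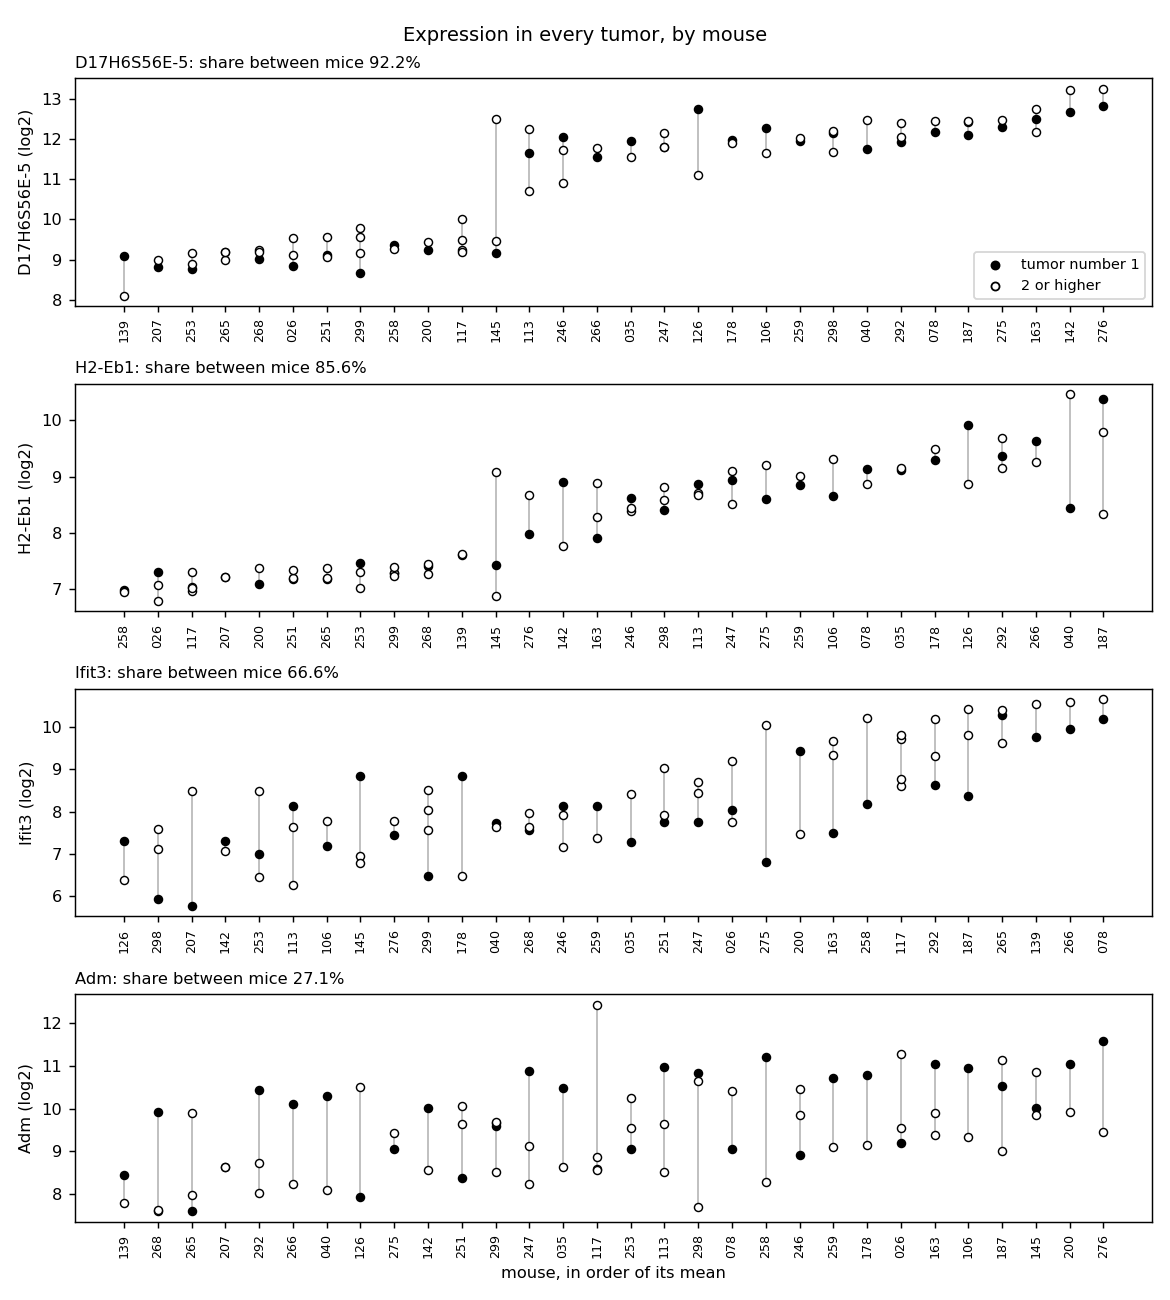
Log2 expression of D17H6S56E-5, H2-Eb1, Ifit3 and Adm (y axes) in each of 77 tumors, arranged by mouse (x axes, in order of the mean of the mouse), with tumor number 1 as filled and other tumors as open points joined by a line within a mouse. D17H6S56E-5 steps from about 9 to about 12 between mice, with 145T5 alone at 12.50 above the other tumors of its mouse, whereas Adm spans its range within mice.

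Many of the genes with the highest shares also differed between FVB and F1 tumors, which come from other mice. An FVB tumor and an F1 tumor have plain mouse numbers like those of F1BX mice. They were kept under their labels, which were not tested. Some reference tumors lay far from the mean of their group. AI506816 ran from 4.063 to 8.181 in FVB tumors (mean 4.651) and from 4.041 to 9.103 in F1 tumors (mean 7.829). Between 26 FVB and 22 F1 tumors, 5677 probe sets (16%) differed at an adjusted p under 0.05 in limma. Among the 1678 probe sets with a mouse effect 617 (36.8%) did, and among the 33878 without one 5060 (14.9%). Of the 92 probe sets with a share of at least 75%, 77 (83.7%) did. Without 145T5 the counts were 590 of 1515 (38.9%) and 93 of 111. Of the 15 genes named above, 14 did and Capn11 did not. For Gcfc2 the difference was only 0.263. Its values in mouse 117, given above, exceeded those of every FVB tumor (at most 8.797) and F1 tumor (at most 9.142). The 6 genes that separated FVB from F1 tumors most widely, with at most 2 tumors overlapping, were followed in the F1BX mice, D17H6S56E-5, C1qtnf1, Trim12a, H2-Eb1, Tln2 and Apobec3. Of 180 combinations of mouse and gene, 24 had tumors of the mouse on both sides of the midpoint of FVB and F1 tumors, 4 of them in mouse 145 and 3 in mouse 126, and 14 mice had none. Without 145T5 there were 20, with none in mouse 145. C1qtnf1, a secreted protein of the C1q/TNF family, was mixed in 7 mice and Apobec3, an antiviral cytidine deaminase, in 6. Probes follow a reference sequence, and whether the alleles differ in RNA level or in hybridization was not tested.

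Antigen presentation, interferon and macrophage genes were the lists with the highest shares between mice. Over all genes with 1 symbol the median share was 44.1%, and 31 of the 332 list genes (9.34%) had a mouse effect, against 4.66% of all genes with 1 symbol. Without 145T5 there were 27 (8.13%, against 4.19%), and the counts of the MHC and macrophage lists below stayed as they were. These counts carry no test, because the lists were chosen with results of these arrays known. MHC class II genes had a median of 63.7%, with a mouse effect in 6 of 9. H2-Aa (67.9%), H2-Ab1 (63.6%), H2-Eb1 and the invariant chain Cd74 (67.7%) also differed between FVB and F1 tumors, whereas H2-Ea (64.3%) and H2-DMa (63.7%) did not pass there. MHC class I genes had a median of 59.7%, with a mouse effect in 6 of 11, among them the peptide transporter Tap2 (63.1%) and the immunoproteasome subunits Psmb8 and Psmb9 (both 61.5%). Neighboring genes are inherited together, as with H2-Eb1 above, so the counts of both MHC lists need not stand for separate loci. The number of loci was not tested. Interferon response genes had a median of 58.5%, with a mouse effect in 7 of 15, and in 5 without 145T5, when Irf7 and Stat2 were no longer called. Ifit2 had the highest share of them, 69.1% (adjusted p = 0.00204 in limma), followed by Ifit3 with 66.6% (0.00545) and Cxcl10, a chemokine for T cells, with 63.2%. Of these 7 genes 1 (14.3%), Cxcl10, differed between FVB and F1 tumors, where 16% of all probe sets did. The mean of the interferon list was high in every tumor of some mice, at 10.24 and 10.21 in mouse 078, 10.19, 9.80 and 10.29 in mouse 265 and 10.01 and 10.16 in mouse 266. It was low in both tumors of mouse 126 (8.18 and 7.36), and in mouse 253 it ran from 7.51 to 9.11. Macrophage genes had a median share of 57.1%, with a mouse effect for Adgre1, C1qa, C1qb, C1qc and Fcgr1. Of all 12 measured macrophage genes 5 differed between FVB and F1 tumors. Of the MHC class I genes 5 of 11 did, of the MHC class II genes 4 of 9 and of the interferon genes 1 of 15. T cell genes (42.1%) and B and plasma cell genes (36.1%) had no gene with a mouse effect. Mean levels over the tumors ran from 5.22 (Cd3d) to 8.09 (Thy1) for T cell genes and from 4.79 (Ms4a1) to 7.38 (Tnfrsf13c) for B and plasma cell genes. Levels of different probe sets are not comparable on these arrays.

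**Figure D5:**
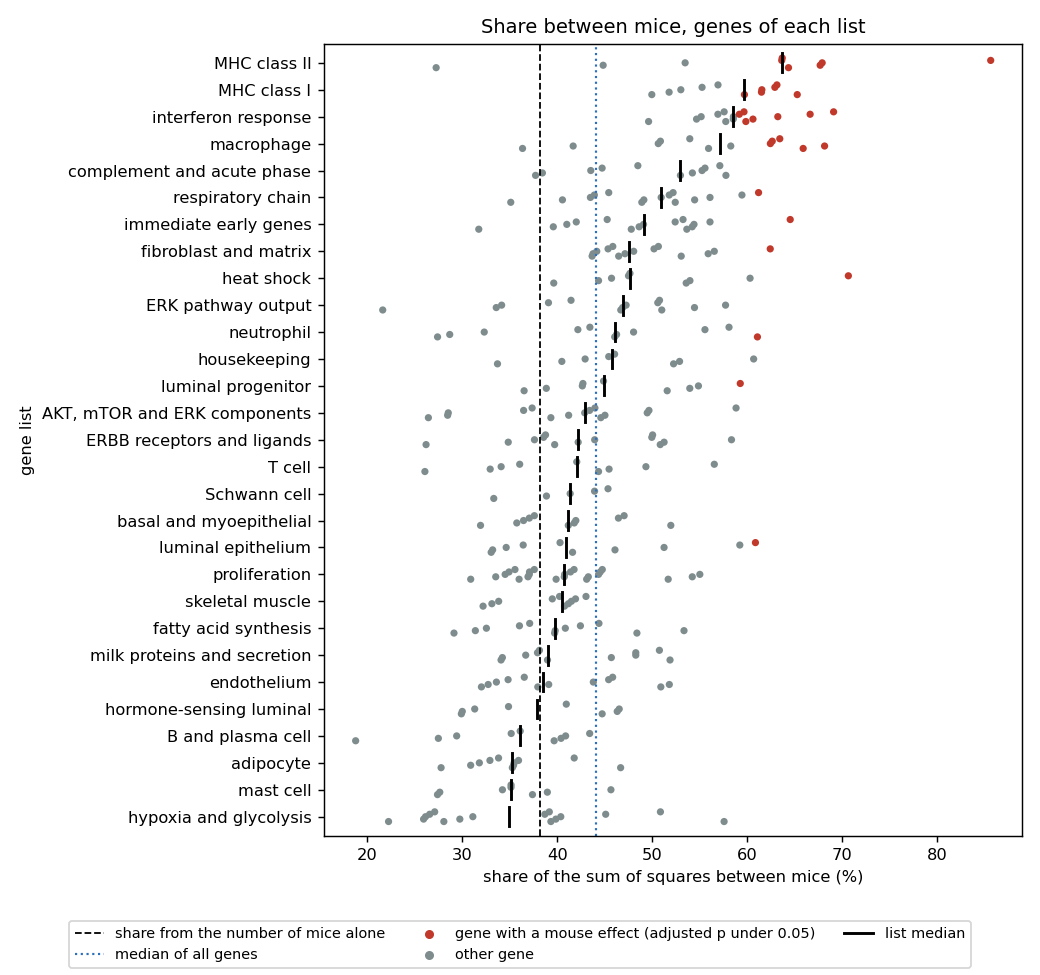
Share of the sum of squares between mice (x axis, %) for each measured gene of 29 lists (y axis, ordered by median), with genes with a mouse effect in red and the list median as a bar. The dashed line marks 38.2%, from the number of mice alone, and the dotted line 44.1%, the median of all genes; hypoxia and glycolysis genes lie lowest with a median of 34.9% and MHC class II genes highest with 63.7%.

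Genes of the response to low oxygen differed widely among the tumors of the same mouse. Of 16 hypoxia and glycolysis genes 0 had a mouse effect, against 4.66% of all genes with 1 symbol. This count does not set the list apart. Complement and acute phase genes (median share 53%, 0 of 11) and housekeeping genes (45.7%, 0 of 8) had none either. The hypoxia and glycolysis genes had a median share of 34.9%. This was the lowest median of the 29 lists, close to those of mast cell (35.1%), adipocyte (35.3%) and B and plasma cell genes (36.1%). With the interquartile range of the arrays as a covariate it was 39.4%, above adipocyte (34.3%) and mast cell genes (35.7%), with a median of 45.7% over all genes. Their list mean had a share of 22.7%. In mouse 117 it was 11.68 in 117T2, the highest of all tumors, and 10.09, 10.22 and 10.24 in the other tumors. In mouse 298 it was 11.03 and 11.07 in 298T1 and 298T2 and 9.83, the lowest of all tumors, in 298T3. Among genes with a standard deviation of at least 0.7, the 15 with the lowest shares, from 18.1% to 27.8%, included 2 of this list, Bnip3, which acts in mitophagy, and Adm. Others were Ak4, a mitochondrial adenylate kinase, Ero1a, an oxidase of the endoplasmic reticulum, Pgf, placental growth factor, and Plod2, which modifies collagen. Adm was 12.42 in 117T2 against 8.58, 8.86 and 8.56 in 117T3, 117T4 and 117T5, and 11.19 in 258T1 against 8.28 in 258T2. Pgf was 11.75 in 292T1 against 7.57 and 8.31 in 292T2 and 292T3, and in mouse 299 it was 7.33 in 299T1 against 11.26, 10.62 and 10.74. Plod2 was 11.47 in 258T1 and 7.21 in 258T2. The order thus differed between mice, with the first tumor the higher in some and the lower in others. A second probe set for Bnip3 (share 21.3%) and for Ak4 (22.2%) had low shares too, and either probe set of these genes may also take up signal of related copies. With the interquartile range as a covariate the share of Ak4 was 30.6% in place of 18.1%, and that of Pgf 42.4% in place of 26.1%, so that these low shares rested in part on that setting. Plod2 then had 37.7%, Ero1a 36.2%, Bnip3 30.9% and Adm 28.2%. Of the 15 genes, 2 (13.3%) differed between FVB and F1 tumors, Pgf and Plod2, where 16% of all probe sets did.

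Some of the remaining genes with low shares were high in a few tumors. Cst10, of the cystatin family of protease inhibitors, was at most 9.25 in 72 tumors and at least 12.21 in 5. These were 247T2 (13.68), 187T2 (13.47), 268T5 (12.95), 078T1 (12.86) and 258T2 (12.21), each from a different mouse, and no other tumor of these mice was high. Wfdc12, of the whey acidic protein family, was highest in the same 5 tumors, from 7.18 in 258T2 to 10.77 in 187T2, against at most 6.53 in the other tumors. Rtn2, a reticulon, and Gpd1, glycerol-3-phosphate dehydrogenase, were highest in 292T3 (11.16 and 12.73), the tumor with the highest muscle and adipocyte means. Muc15, a membrane mucin, was 11.91 in 145T1 and 8.11 in 145T6. Bbox1, of carnitine synthesis, was 8.60, 5.67 and 9.62 in the 3 tumors of mouse 026. Mgarp (4.78 to 8.79 over the 77 tumors), Prrg3 (6.22 to 9.80) and Psrc1 (8.10 to 11.29) complete the 15 genes.

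Promoter sequence is shown for 2 genes of each of the lists with the lowest and a high share, to set the binding motifs beside the values. The sequences are the 250 bases before the transcription start, from RefSeq (GRCm38.p6), on the strand of the gene. Capitals mark the HIF core in Adm and P4ha1 (ACGTG or GCGTG on either strand, overlapping matches merged) and the interferon stimulated response element in Ifit3 and Ifit1 (GAAA, any 2 bases, then GAAA, or its complement TTTC, any 2 bases, then TTTC).
Adm (chr7:110627407-110627656, plus strand): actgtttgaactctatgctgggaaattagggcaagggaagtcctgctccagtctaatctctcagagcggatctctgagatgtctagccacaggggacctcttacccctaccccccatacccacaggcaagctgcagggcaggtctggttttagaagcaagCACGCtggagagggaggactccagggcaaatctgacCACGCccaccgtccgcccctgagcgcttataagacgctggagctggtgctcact
P4ha1 (chr10:59323046-59323295, plus strand): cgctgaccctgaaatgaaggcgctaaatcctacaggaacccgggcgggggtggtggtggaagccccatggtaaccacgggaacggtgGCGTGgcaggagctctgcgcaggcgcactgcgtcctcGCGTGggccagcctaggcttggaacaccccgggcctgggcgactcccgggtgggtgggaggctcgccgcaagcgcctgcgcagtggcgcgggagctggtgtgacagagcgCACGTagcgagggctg
Ifit3 (chr19:34583279-34583528, plus strand): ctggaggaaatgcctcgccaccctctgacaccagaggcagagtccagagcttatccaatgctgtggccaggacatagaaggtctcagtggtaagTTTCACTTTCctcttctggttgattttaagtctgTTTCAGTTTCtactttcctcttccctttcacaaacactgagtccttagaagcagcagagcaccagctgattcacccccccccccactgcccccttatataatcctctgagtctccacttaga
Ifit1 (chr19:34640639-34640888, plus strand): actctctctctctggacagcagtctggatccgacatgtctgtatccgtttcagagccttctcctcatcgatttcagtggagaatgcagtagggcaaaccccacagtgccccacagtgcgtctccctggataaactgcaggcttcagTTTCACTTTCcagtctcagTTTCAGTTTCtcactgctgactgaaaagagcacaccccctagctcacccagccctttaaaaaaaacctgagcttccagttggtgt
The window of Adm held 2 matches and that of P4ha1 3, and those of Ifit3 and Ifit1 held 2 each. Of 15 measured hypoxia and glycolysis genes with a promoter in the RefSeq table, 13 had the HIF core in this window (86.7%), against 38.6% of 27025 genes. Of the 12 genes with the lowest shares that matched the table, 8 had it (66.7%). The interferon element lay in the window of 9 of 13 measured interferon response genes (69.2%) and of 3.04% of all genes. For each gene the first listed start was used, and a match is a run of letters, not a measured binding site.

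Between whole tumors, those of the same mouse were slightly closer than those of different mice. The root mean square difference over all probe sets had a median of 0.442 log2 units for 66 pairs of tumors of the same mouse (0.304 to 0.807) and of 0.479 for 2860 pairs of different mice (0.331 to 0.807), with wide overlap. Pairs of a first and a later tumor had a median of 0.442 (44 pairs) and pairs of later tumors 0.448 (22 pairs). The nearest tumor was one of the same mouse for 11 of 77 tumors, where equal distances would give 1.74.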

How the data were processed

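Mammary tumor RNA was hybridised to Affymetrix mouse gene 1.0 ST arrays, and each array was assigned to its mouse and tumor number by its title. The deposited values are log2 values that the authors normalized by RMA, and neither the software version nor the build of the annotation is given in the sources used here. They were used as deposited, for all 35556 probe sets without a filter. Arrays have no counting depth, and their number limits the precision. The platform annotation gave 21789 probe sets 1 gene symbol, and for a gene with several the one with the highest mean was used.

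The test of later against first tumors was limma 3.58.1 (R 4.3.3, statmod 1.5.0) with the mouse as a fixed block, since the names give the mouse of each tumor. The mouse effect was limma's moderated F test over mice, and p-values were adjusted by Benjamini-Hochberg over all probe sets (threshold 0.05). Probe sets that repeat the values of another (476) were counted as deposited. Tumors of a mouse are separate lesions by their names, and the p-values measure the spread between them. FVB and F1 tumors were compared with the mouse as a random block. Scripts were tested on simulated data. The SAM software named in the methods was not used.

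The members, the 29 lists and the tests were chosen with earlier results of these data known. Named are the 10 genes with the smallest p in each direction for later against first tumors, the 15 with the highest share between mice, the 15 with the lowest among genes with a standard deviation of at least 0.7, Erbb2 and genes of the lists. Predicted genes were left out. Alternatives were other blocks, filters, normalization, covariates, array weights, tumor numbers and thresholds, and leaving out each mouse. Those without 145T5, without mice with muscle or adipose signal and with 1-symbol probe sets were added after seeing the data.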

Additional observations from a re-analysis of the deposited data

How the results depend on the processing

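With the mouse left out as a block, with it as a random block and in each other setting, limma called 0 probe sets between later and first tumors, also when each mouse was left out in turn (0 to 0). The count at an unadjusted p under 0.05 was 1766 with the random block and 1416 with no block, and over the settings other than leaving out 1 mouse it ran from 1416 to 3165 (only tumor number 2), with lowest adjusted p values from 0.14 (array weights) to 1. When each mouse was left out in turn, calls of the mouse effect ran from 1231 without mouse 117 to 1906 without mouse 258, and the between-mouse variance from 11.3% to 13.1%. With the interquartile range of the arrays as a covariate there were 2242 calls, and with the 2 lowest tumor numbers of each mouse 1909, of which 825 were among the 1678. With only 1-symbol probe sets, which leaves fewer to test, 1065 were called, and at an adjusted p of at most 0.005, 378. With the 2 lowest tumor numbers of each mouse the between-mouse variance was 16.1%, with the filter on low values 14% and with the covariate 14.1%, and the cause was not tested. Mixed combinations of mouse and gene were 35 with the midpoint between the lowest F1 and the highest FVB tumor, against 24. For D17H6S56E-5, with 7 of the 35, that midpoint lies within the range of the FVB tumors. The median of the milk list turned to -0.0392 with the tumor number as a slope, a value per tumor number, and the cause was not tested. The medians of the hypoxia, interferon, fibroblast, adipocyte and muscle lists kept their sign in the settings run and carry no test. Including F1BX arrays below the limit was not run, because none came from a mouse with 2 or more tumors. The limits lie in the number of mice, in handling that is unknown, and in markers without detection values.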

Other observations

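Outside the MHC, interferon and macrophage lists, no list had more than 1 gene with a mouse effect in limma. Among all genes with 1 symbol 4.66% had one, so these single calls do not set their lists apart. They were Zfp36 (of 15 immediate early genes), Hsph1 (of 9), Cox4i1 (of 15), Muc1 (of 10), Itgb3 (of 9), Col6a3 (of 14) and Csf3r (of 11). Itgb3 and Cox4i1 were no longer called without 145T5. Hsph1, a heat shock protein that assists HSP70, had a share of 70.6% between mice (adjusted p = 0.00167) and was 8.91 and 9.15 in mouse 275 and 10.42, 9.81 and 10.50 in mouse 113. It did not pass between FVB and F1 tumors (adjusted p = 0.520). Muc1, a mucin of luminal epithelium, had 60.9% (adjusted p = 0.0336), with 10.91 and 10.09 in mouse 035 and 7.55, 7.07 and 8.69 in mouse 298, and it differed between FVB and F1 tumors (adjusted p = 0.0011). Zfp36, which destabilizes cytokine mRNAs, had 64.5%. Csf3r, the receptor for the growth factor G-CSF, had 61.1%, and was 8.39 and 8.42 in 187T1 and 187T2 but 6.98 in 187T3, the tumors with high and low fibroblast and macrophage means.

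Krt19 and Krt7, both keratins of luminal epithelium, had differences of opposite sign between later and first tumors, 0.50 and -0.30 on the log2 scale. Krt19 was higher in later tumors in 21 of 29 mice and Krt7 in 7 of 29, and neither passed (adjusted p = 0.879 in limma). Kit, a receptor of luminal progenitors, had 0.22 and was higher in 18 of 29 mice (adjusted p = 0.879). Map2k1, the kinase MEK1, had -0.14 and was higher in 10 of 29.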
